A study of Mus musculus with 8 samples.

Results

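The 44 genes described here encode the proteins that shorten the poly(A) tail of an mRNA, remove its cap and degrade it from either end, together with RNA-binding proteins that bring this machinery to chosen transcripts. They were picked by name from a list, with no measured value in the rule: every non-control probe whose gene name was on the list counted as a member's probe, which gave 58 of the 39429 probes on the array. 31 genes had 1 probe, 12 had 2 and 1 had 3. 43 of the 44 genes were measured well enough to be tested, among 19128 genes tested in all. The exception, Zc3h12a, an RNase that cuts stem-loops in inflammatory mRNAs, was not well above background on any of the 8 arrays.

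The cells were early erythroid progenitors from fetal liver of C57BL/6 embryos at E14.5. Lineage, Sca-1, CD16/32, CD41 and CD34 positive cells had been depleted magnetically, and c-kit positive cells with low CD71 sorted, before infection and 3 days of culture. Total RNA, labelled with Cy3, was hybridised to 8 Agilent 1-colour arrays, 2 in each of 4 groups: cells with a control virus grown without DEX, cells with the control virus grown with DEX, and cells with a virus carrying shRNA1 or shRNA2 grown with DEX. DEX is read here as dexamethasone, a glucocorticoid, and all 4 groups had been infected. The shRNAs target an RNA-binding protein that the labels leave unnamed; from knowledge of the published work it is Zfp36l2. No shRNA group was grown without DEX, so the response to the shRNAs is known only in its presence. Whether replicates came from separate cultures or litters is not given in the sources used here; p-values reflect only array-to-array spread, possibly technical. In bulk RNA a lower share of some cells and less RNA per cell cannot be told apart.

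Most mRNAs are degraded after deadenylation. The CCR4-NOT complex and the PAN2-PAN3 complex shorten the tail, after which DCP2 and its activators remove the cap and XRN1 digests the body from the 5' end, while the RNA exosome digests from the 3' end. ZFP36 family proteins bind AU-rich elements and recruit CCR4-NOT, which ties the protein targeted here to this machinery. Erythroid progenitors remodel their mRNA pool widely as they mature.

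Values are log2 signals minus the 75th percentile of their array, called normalized log2 signal, and a difference is the difference between 2 group means on that scale with its standard error (SE) from limma. Replicate 1 of every group lay on 1 slide and replicate 2 on another. In the lists of values, the first value of each group is the array on the first slide and the second that on the second slide. Zfp36l2 measured 3.49 and 3.85 without DEX, 5.55 and 5.42 with DEX, 4.09 and 3.92 with shRNA1 and 4.12 and 3.70 with shRNA2 (probe on chromosome 17, 84583415 to 84583474, mm9), with the control virus arrays with DEX above all others. The difference was 1.82 with DEX (SE 0.31, adjusted p 0.373 in limma, with the block 0.0721). With shRNA1 it was -1.48 (SE 0.31, adjusted p 0.923 in limma, with the block 0.229). With shRNA2 it was -1.58 (SE 0.31, adjusted p 0.999955 in limma, with the block 0.751). The 75th percentile of the signal was 966 and 1003 for the control virus arrays of the first slide but 476 and 522 for the shRNA arrays beside them; it was 1439 to 2061 on the second slide. Erythroid markers averaged 5.43 and 4.85 without DEX, 4.82 and 4.15 with DEX, 5.41 and 4.79 with shRNA1 and 4.73 and 4.16 with shRNA2. On each slide they were thus higher without DEX and with shRNA1 than in the other groups. Of the measured genes 12 of 12 were well above background on every array. Neutrophil markers averaged -1.38 and 0.38 without DEX, -1.49 and -1.04 with DEX, 0.33 and 0.38 with shRNA1 and 2.30 and -0.24 with shRNA2. On each array 13 or 14 of 15 were well above background. Both shRNA1 arrays thus read higher than both control virus arrays with DEX, and the first shRNA2 array was the highest. Megakaryocyte markers averaged -0.54 to 1.52 on 7 arrays and 2.80 on that same array, with 12 of 12 well above background. Monocyte, mast cell, hepatocyte and lymphoid lists averaged between -6.06 and -2.25, with 9 to 10 of 14, 5 to 9 of 10, 2 to 5 of 9 and 4 to 6 of 9 genes well above background on an array. Csf1r, Cd14, Lyz2, Marco, Cpa3, Hdc, Afp, Apoa2, Cd3e and Cd79a were among those well above background on all 8 arrays, and C1qc, Mrc1, Cd163, Tpsab1, Alb, Ttr, Fgb, Fgg, Cd3g and Rag1 among those well above it on none. The part these differences played in the values below was not tested.

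The probes that carry the results are shown here by the first 30 of their 60 bases, 5' to 3' as deposited, with the mm9 position of the whole probe. Btg2, Cnot6l, Lsm1, Rc3h2 and Tia1 are shown because they were among the members with the largest differences without overlap between groups in at least 1 comparison. Tial1, Tia1 and Elavl1 are shown with both probes because these disagreed. Capitals in the probes of Btg1 and Khsrp mark ATTTA, the core of an AU-rich element, and capitals in that of Exosc2 mark a word that recurs in many promoter windows.
Btg2, chr1:135972094-135972153, minus strand: ttaaatcttcaattctttactgtccttgtt
Cnot6l, brighter probe, chr5:96505874-96505933, minus strand: cattcacgattgataaatcactaatttgag
Cnot6l, other probe, chr5:96505133-96505192, minus strand: cagtttcagaaagggcaagccagataatat
Lsm1, chr8:26912646-26912705, plus strand: tgaaaagtgatctcattctttcatggatgc
Rc3h2, chr2:37230722-37230781, minus strand: ttgcaaatgggaagatggttaacagctgaa
Tia1, brighter probe, chr6:86383073-86383132, plus strand: actagattacatctacagaaggagtagaca
Tia1, other probe, chr6:86381136-86381195, plus strand: taccaggaactaggaaaacaagaaacttgt
Tial1, brighter probe, chr7:135585977-135586036, minus strand: gaaacacgattgtaattcaccacaggctgc
Tial1, other probe, chr7:135583306-135583365, minus strand: agtgagaggccaactaaagccaaagctgta
Elavl1, brighter probe, chr8:4288411-4288470, minus strand: aaagttctcttcataactgccttgacgttt
Elavl1, other probe, chr8:4285514-4285573, minus strand: ctaccagctgattcccttgttgtacactag
Btg1, other probe, chr10:96085358-96085417, plus strand: gcagctttaaatcagtcggATTTAtgaata
Khsrp, brighter probe, chr17:57160973-57161032, minus strand: agcaagaATTTAacctctgccccgcccccc
Exosc2, chr2:31536706-31536765, plus strand: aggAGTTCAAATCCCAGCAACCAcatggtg
ATTTA was found on the probe strand in 7 of the 58 member probes (12.1%), in 6 genes, and in 8.01% of all 39429 probes. This search was chosen after the values were seen and describes the probes, not the whole transcripts.

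None of the decay-machinery genes passed the test with DEX or with either shRNA. In limma's fit over all genes, 0 of 43 members had a Benjamini-Hochberg adjusted p below 0.05 in any of the 4 comparisons, and neither did any of the 19128 genes (background 0% in each). With the slide as a block, again 0 of 43 passed, against 0.23% of all genes for DEX, 0% for shRNA1, 0.00523% for shRNA2 and 0% for shRNA1 against shRNA2. At an unadjusted p below 0.05 the members numbered 0 for DEX, 1 for shRNA1, 1 for shRNA2 and 0 between the shRNAs, against a background of 3.11%, 2.09%, 1.25% and 2.38%. With the slide as a block these numbers were 1, 6, 1 and 3 of 43, against 9.55%, 17.8%, 5.7% and 11% of all genes. No member differed at least 2-fold the same way on both slides, whereas 3.73%, 3.64%, 1.02% and 1.85% of all genes did in the 4 comparisons in that order.

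The intervals bound what can be said. The 95% interval of the difference lay within 2-fold either way for 15 of 43 members with DEX, 10 with shRNA1, 15 with shRNA2 and 10 between the shRNAs. As shares these were 34.9%, 23.3%, 34.9% and 23.3%, where the 19128 genes tested gave 18.1%, 14.4%, 19.1% and 15.8%. With the slide as a block it did so for 35, 23, 29 and 31 members. The 19128 genes then gave 57.0%, 41.9%, 55.4% and 51.6%. For the other members a 2-fold difference lies inside the interval, so the test does not show that they were alike. A difference of at least 0.5 (log2) in either direction was seen for 2 members with DEX (4.65%, against 19.8% of all genes), for 14 with shRNA1 (32.6%, against 38.6%) and for 3 with shRNA2 (6.98%, against 21.4%).

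**Figure D1:**
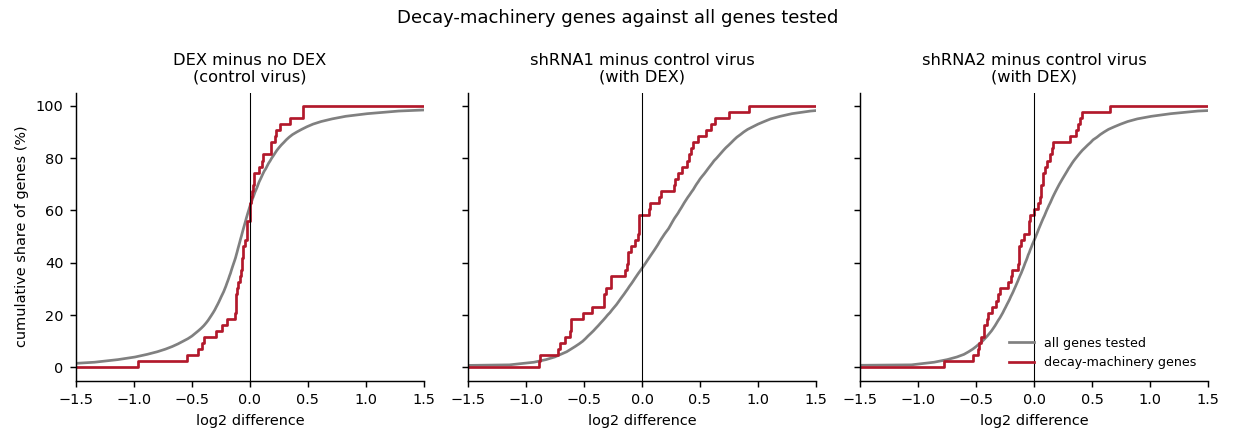
Cumulative share of genes (vertical axis, %) at or below each log2 difference (horizontal axis) for the 43 decay-machinery genes tested (red steps) and all 19128 genes (grey line) in 3 comparisons, from -1.5 to 1.5. With DEX the red curve is the steeper, with 2 genes at an absolute difference of 0.5 or more; with shRNA1 it lies to the left of the grey curve over most of the range.

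Higher and lower here count differences above and below 0. Medians were also set against the median of all genes, because the scaling moved that median by over 0.1 in both shRNA comparisons. With DEX 18 members were higher and 25 lower, and their median stood 0.05 above that of all genes. With shRNA1 18 were higher and 25 lower, with a relative median of -0.22, with -0.42 on slide 1 and -0.10 on slide 2. With shRNA2 17 were higher and 26 lower, with a relative median of -0.10, with -0.32 on slide 1 and 0.08 on slide 2. Of all genes 38.4%, 62.1% and 51.4% were higher in these comparisons. The size of the shRNA medians moved with the processing: that of shRNA1 was -0.07 with quantile normalization, -0.10 with the authors' deposited table, -0.34 with normexp and -0.37 when dim probes were kept, and that of shRNA2 was -0.05, -0.06, -0.21 and -0.24. Single arrays moved these medians too. The relative median of shRNA1 was 0.0066 without the first shRNA1 array and -0.47 without the second, and -0.37 and -0.09 without the first or second control virus array with DEX. That of shRNA2 was 0.21 and -0.40 without its first or second array, and -0.20 and -0.05 without those control arrays. That of DEX was -0.09 and 0.16 without the first or second array without DEX, and 0.12 and -0.09 without the first or second with DEX. The counts of members higher and lower turned to 29 and 14 for DEX when arrays were scaled to their median, and became 9 and 34 for shRNA1 and 6 and 37 for shRNA2; the relative medians stay the same under that scaling. Both shRNA comparisons and the DEX comparison use the same 2 control virus arrays with DEX, so their values below are set side by side only.

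**Figure D2:**
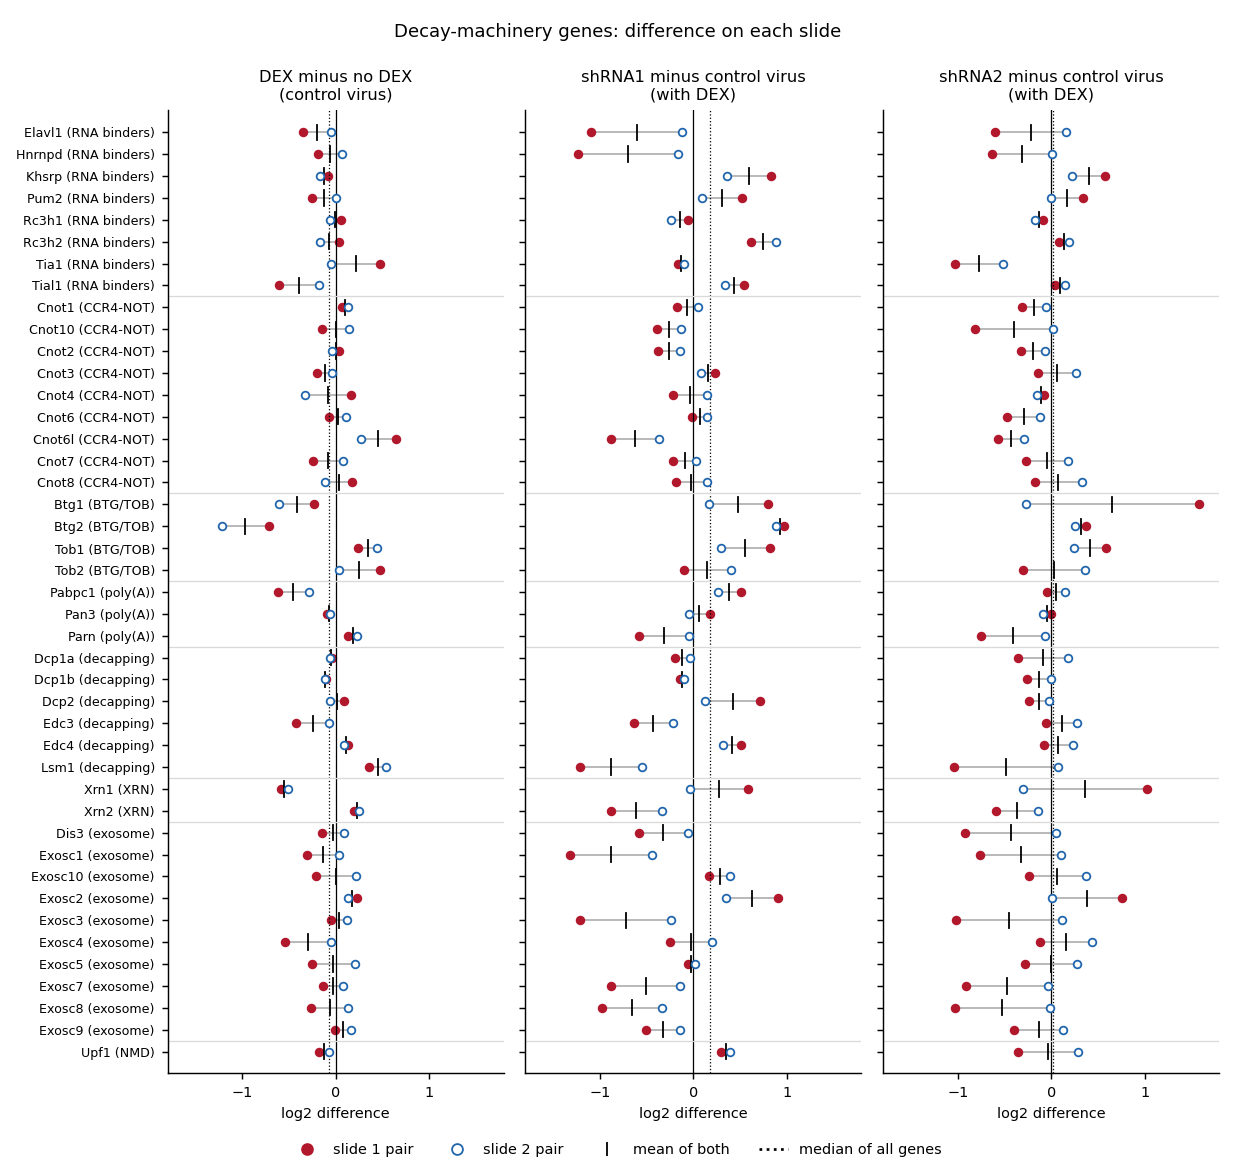
Log2 difference (horizontal axis) of each of the 43 tested genes, grouped by role, for DEX, shRNA1 and shRNA2; filled points are the pair of arrays on slide 1, open points the pair on slide 2, black ticks their mean, and the dotted line the median of all genes. In the shRNA2 panel 34 of 43 filled points (79.1%) and 17 of 43 open points (39.5%) lie below 0. Of all genes 47.1% did on slide 1 and 51.3% on slide 2.

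Of the 8 RNA-binding proteins tested, 1 was higher and 7 lower with DEX, and 4 were higher and 4 lower with each shRNA. Rc3h2 and Tia1 had the smallest p-values of the members, each for 1 shRNA. Rc3h2, which encodes roquin-2, a protein that binds stem-loops in 3' ends and recruits CCR4-NOT, measured 0.30 and 0.17 without DEX, 0.34 and -0.00023 with DEX, 0.95 and 0.88 with shRNA1 and 0.42 and 0.19 with shRNA2 (probe on chromosome 2, 37230722 to 37230781, mm9). Both shRNA1 arrays lay above all 6 others, as they did for 4 of 43 members (Rc3h2, Dcp2, Pum2 and Upf1) and 3.45% of all genes. The difference with shRNA1 was 0.75 (SE 0.29, n = 2 arrays a group; 0.61 on slide 1 and 0.88 on slide 2), with an adjusted p of 0.923 and, with the block, 0.238 in limma. With shRNA2 it was 0.13 (SE 0.29), and shRNA1 exceeded shRNA2 by 0.61 (SE 0.29, adjusted p 1.00 in limma).

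Tia1, a granule protein that binds U-rich RNA and silences its translation, measured -2.65 and -2.47 without DEX, -2.17 and -2.52 with DEX, -2.34 and -2.62 with shRNA1 and -3.21 and -3.04 with shRNA2 (probe on chromosome 6, 86383073 to 86383132). Both shRNA2 arrays lay below all 6 others, as they did for 1 of 43 members and 2.57% of all genes. The difference with shRNA2 was -0.78 (SE 0.30; -1.04 on slide 1 and -0.52 on slide 2; adjusted p 1.00 in limma and 0.78 with the block), and with shRNA1 it was -0.13 (SE 0.30). Its other probe differed by -0.07 with shRNA2 and by -0.40 with shRNA1. Tial1, its close relative, measured 4.55 and 4.34 without DEX, 3.94 and 4.16 with DEX, 4.48 and 4.50 with shRNA1 and 3.98 and 4.30 with shRNA2 by its brighter probe. Its probes disagreed more strongly: the brighter probe differed by -0.39 with DEX, 0.44 with shRNA1 and 0.09 with shRNA2, and the other probe by 0.34, -0.20 and -0.88. The values of these genes therefore depend on the probe, and which transcript forms the probes detect was not tested.

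Elavl1 and Hnrnpd, binders of AU-rich elements that stabilise mRNAs (HuR) or mostly promote their decay (AUF1), were low on the shRNA arrays of the first slide. Elavl1 measured 4.16 and 4.65 without DEX, 3.81 and 4.61 with DEX, 2.72 and 4.48 with shRNA1 and 3.21 and 4.76 with shRNA2. Its difference with shRNA1 was -0.61 (SE 0.77), made of -1.10 on slide 1 and -0.12 on slide 2, and its other probe differed by 0.01. Hnrnpd measured 3.82 and 4.26 without DEX, 3.64 and 4.33 with DEX, 2.40 and 4.16 with shRNA1 and 3.01 and 4.33 with shRNA2, and its difference with shRNA1 was -0.70 (SE 0.72; -1.24 and -0.17 on the slides). The arrays of the groups overlapped for both genes.

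Khsrp, a binder of AU-rich elements that recruits decay enzymes, went the other way. It measured 2.74 and 2.10 without DEX, 2.65 and 1.94 with DEX, 3.49 and 2.30 with shRNA1 and 3.23 and 2.16 with shRNA2, with a difference of 0.60 for shRNA1 (SE 0.59; 0.83 and 0.36 on the slides; adjusted p 0.27 in limma with the block) and 0.40 for shRNA2 (SE 0.59). Without the first shRNA1 array the shRNA1 value was 0.0049. Its other probe gave 0.48 and 0.34. Of the remaining binders, Rc3h1 (roquin-1) measured 0.22 and 0.35 without DEX, 0.28 and 0.28 with DEX, 0.22 and 0.05 with shRNA1 and 0.19 and 0.11 with shRNA2. It differed by -0.00038, -0.15 and -0.13 with DEX, shRNA1 and shRNA2, and Pum2, a Pumilio repressor, by -0.12, 0.31 and 0.17. Their other probes gave 0.44 and -0.45 with shRNA1, opposite in sign to the first. Zc3h12a read -7.95 to -5.58 on the 8 arrays, all without a signal well above background.

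In the CCR4-NOT complex, Cnot6l was the single member whose arrays did not overlap between groups in any of the DEX, shRNA1 and shRNA2 comparisons (1 of 43), which 5.54% of all genes tested also showed. It encodes a catalytic deadenylase of the complex and measured 2.32 and 2.64 without DEX, 2.96 and 2.91 with DEX, 2.08 and 2.54 with shRNA1 and 2.39 and 2.61 with shRNA2 (probe on chromosome 5, 96505874 to 96505933). The control virus arrays with DEX were the highest 2 of the 8, as for 1 of 43 members and 1.89% of all genes. The difference was 0.46 with DEX (SE 0.31; 0.65 and 0.27 on the slides), -0.63 with shRNA1 (SE 0.31; -0.89 and -0.37) and -0.43 with shRNA2 (SE 0.31; -0.57 and -0.30). Adjusted p-values in limma were 1.00, 0.923 and 1.00, and 0.611, 0.257 and 0.78 with the block. The second probe, on the same chromosome and not overlapping it, gave 0.39, -0.69 and -0.60. The 3 differences share the same 2 control virus arrays with DEX, so they are not independent.

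Of the other 3 deadenylase subunits, Cnot6, its paralogue, measured 4.58 and 4.6 without DEX, 4.51 and 4.72 with DEX, 4.49 and 4.86 with shRNA1 and 4.04 and 4.59 with shRNA2. It differed by 0.02, 0.06 and -0.30 with DEX, shRNA1 and shRNA2 (SE 0.33). Cnot7 differed by -0.08, -0.09 and -0.04 (SE 0.56), and it measured -2.77 and -2.36 without DEX, -3.01 and -2.28 with DEX, -3.23 and -2.25 with shRNA1 and -3.28 and -2.10 with shRNA2, every array of the first slide below every array of the second. Cnot8 measured 1.70 and 1.62 without DEX, 1.87 and 1.51 with DEX, 1.68 and 1.66 with shRNA1 and 1.70 and 1.83 with shRNA2 and differed by 0.03, -0.02 and 0.07 (SE 0.28). The scaffold Cnot1 measured 1.67 and 1.97 without DEX, 1.75 and 2.10 with DEX, 1.57 and 2.14 with shRNA1 and 1.43 and 2.04 with shRNA2, with differences of 0.10, -0.06 and -0.19 (SE 0.37) and 95% intervals of -0.80 to 1.01, -0.97 to 0.84 and -1.10 to 0.72.

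Of the 9 CCR4-NOT genes, 6 were higher and 3 lower with DEX, and 2 were higher and 7 lower with each shRNA. None passed the test. The group's relative median was 0.08 with DEX, -0.24 with shRNA1 and -0.20 with shRNA2. On the second slide alone the last 2 were -0.07 and -0.05. Of the subunits that are not deadenylases, Cnot3 differed by -0.11, 0.16 and 0.06, Cnot4, a ubiquitin ligase, by -0.08, -0.04 and -0.12, and Cnot2 and Cnot10 by -0.27 and -0.27 with shRNA1 and by -0.20 and -0.40 with shRNA2.

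The BTG and TOB proteins bind the deadenylase subunits CNOT7 and CNOT8, speed deadenylation and restrain proliferation. All 4 were higher with shRNA1, by 0.15 to 0.93, and with shRNA2, by 0.03 to 0.65, and 2 of 4 were higher with DEX; none passed the test. Btg2 had the largest difference of any member with DEX. It measured 2.04 and 1.47 without DEX, 1.33 and 0.25 with DEX, 2.30 and 1.13 with shRNA1 and 1.69 and 0.51 with shRNA2 (probe on chromosome 1, 135972094 to 135972153). On each slide the control virus array with DEX was the lowest of the 4, an order that was not counted over all genes. The first slide read higher than the second in every group. The difference with DEX was -0.97 (SE 0.64; -0.72 on slide 1 and -1.22 on slide 2), with an adjusted p of 1.00 in limma, or 0.206 with the slide as a block, where its SE was 0.23. With shRNA1 it was 0.93 (SE 0.64; 0.97 and 0.88 on the slides; adjusted p 0.923, with the block 0.239) and with shRNA2 0.31 (SE 0.64; 0.37 and 0.26). Between the shRNAs it was 0.61 (SE 0.64, adjusted p 0.431 in limma with the block), or 0.02 to 1.2 with single arrays left out.

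Tob1 measured -0.91 and -2.10 without DEX, -0.67 and -1.65 with DEX, 0.15 and -1.35 with shRNA1 and -0.09 and -1.41 with shRNA2. Both shRNA arrays were above both control virus arrays on each slide, an order that was not counted over all genes. For shRNA1 the difference was 0.56 (SE 0.76, with 0.82 and 0.30 on the slides, adjusted p 0.27 in limma with the block). For shRNA2 it was 0.41 (SE 0.76, with 0.58 and 0.24). The difference between the slides, at -1.25, was larger than either, and without the first shRNA1 array the shRNA1 value turned to -0.19. Unlike Btg2, it was higher with DEX, by 0.35 (SE 0.76).

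Btg1 measured 2.48 and 1.94 without DEX, 2.26 and 1.33 with DEX, 3.06 and 1.5 with shRNA1 and 3.84 and 1.06 with shRNA2. The highest value was the first shRNA2 array, which also had the highest neutrophil and megakaryocyte marker means, 2.30 and 2.80; their part in the Btg1 value was not tested. The difference with shRNA2 was 0.65 (SE 0.99), made of 1.58 on slide 1 and -0.27 on slide 2, and its second probe gave 1.22. With shRNA1 it was 0.48 and with DEX -0.42. Tob2 measured 0.59 and 0.11 without DEX, 1.06 and 0.15 with DEX, 0.96 and 0.55 with shRNA1 and 0.76 and 0.51 with shRNA2. It differed by 0.26, 0.15 and 0.03 (SE 0.41), with opposite signs on the 2 slides for both shRNAs.

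**Figure D3:**
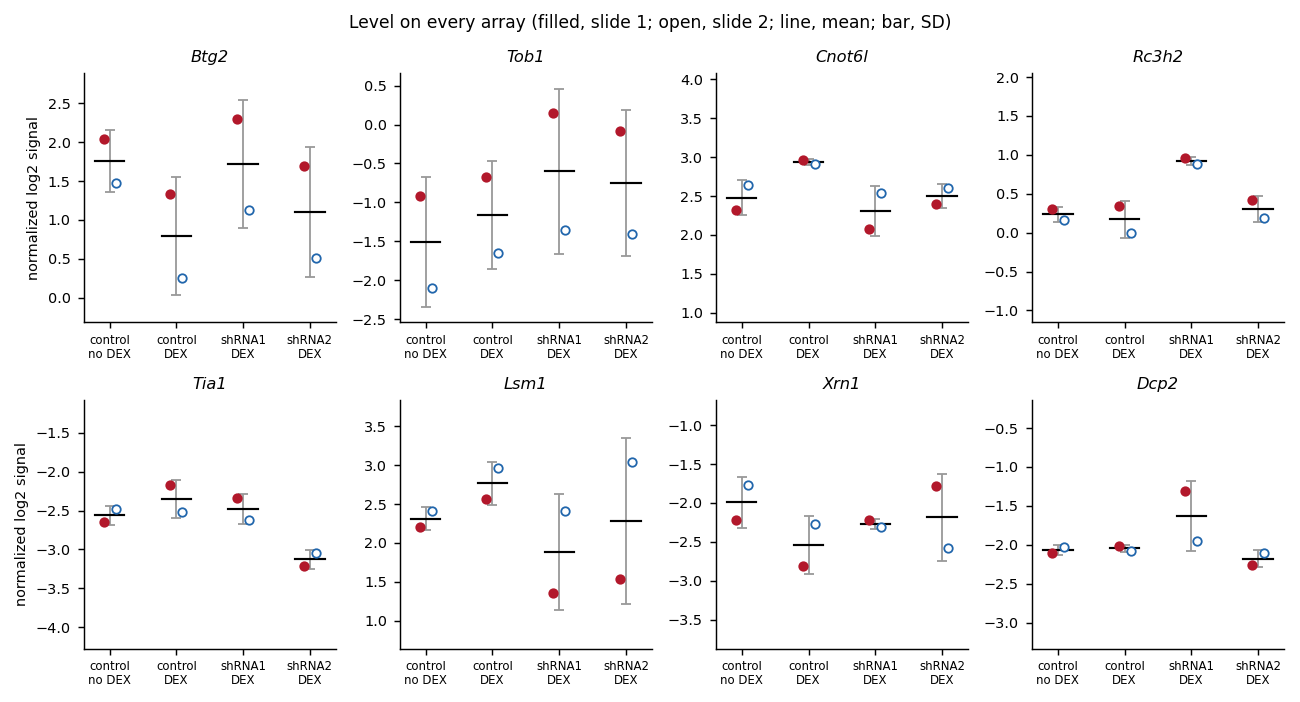
Normalized log2 signal (vertical axis, the same span of 3.2 in each panel) of 8 genes on every array, by group; filled points are slide 1, open points slide 2, lines group means and bars the SD of 2 arrays. Both shRNA1 arrays of Rc3h2 (0.95 and 0.88) and both shRNA2 arrays of Tia1 (-3.21 and -3.04) stand clear of the other 6, while Btg2, Tob1 and the shRNA arrays of Lsm1 are spread mainly by slide.

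Among the poly(A) proteins, Parn, a nuclear and cytoplasmic deadenylase, measured 1.42 and 1.54 without DEX, 1.56 and 1.77 with DEX, 0.97 and 1.73 with shRNA1 and 0.80 and 1.70 with shRNA2. It differed by 0.18 with DEX, -0.32 with shRNA1 and -0.41 with shRNA2 (SE 0.43), and on the second slide alone the shRNA values were -0.04 and -0.06. Pan3, the partner that guides PAN2 to the tail, was among the steadiest members, at 2.45 and 2.54 without DEX, 2.36 and 2.48 with DEX, 2.53 and 2.44 with shRNA1 and 2.35 and 2.40 with shRNA2, with differences of -0.07, 0.06 and -0.05 (SE 0.27). Its 95% intervals, -0.72 to 0.57, -0.58 to 0.71 and -0.69 to 0.60, lie within 2-fold either way. Pabpc1, the main cytoplasmic poly(A)-binding protein, measured 7.80 and 7.0 without DEX, 7.18 and 6.72 with DEX, 7.69 and 6.98 with shRNA1 and 7.14 and 6.86 with shRNA2, and differed by -0.45 with DEX (-0.62 and -0.28 on the slides), 0.39 with shRNA1 and 0.05 with shRNA2 (SE 0.43).

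Of the 6 decapping genes, 3 were higher and 3 lower with DEX, and 2 were higher and 4 lower with each shRNA. Lsm1 carried the largest differences. It belongs to the LSM1-7 ring that binds deadenylated ends and activates decapping, and it measured 2.21 and 2.42 without DEX, 2.57 and 2.96 with DEX, 1.36 and 2.41 with shRNA1 and 1.53 and 3.04 with shRNA2 (probe on chromosome 8, 26912646 to 26912705). The 2 shRNA arrays of the first slide were lowest, and the second shRNA2 array was the highest of all. The difference was 0.45 with DEX (SE 0.60; 0.36 and 0.54 on the slides), -0.88 with shRNA1 (SE 0.60; -1.21 and -0.55; adjusted p 0.923 in limma, with the block 0.283) and -0.48 with shRNA2 (SE 0.60; -1.04 and 0.08). The shRNA2 value thus rested on the first slide, and leaving out single arrays gave -1.41 to -0.35 for shRNA1.

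Dcp2, the decapping enzyme, measured -2.11 and -2.02 without DEX, -2.02 and -2.08 with DEX, -1.31 and -1.95 with shRNA1 and -2.26 and -2.10 with shRNA2. Both shRNA1 arrays were the highest, by 0.42 over the control virus (SE 0.32; 0.71 and 0.13 on the slides), while shRNA2 differed by -0.13 and DEX by 0.02. shRNA1 exceeded shRNA2 by 0.55 (SE 0.32, adjusted p 1.00 in limma). Of its cofactors, Dcp1a differed by -0.05, -0.12 and -0.09 and Dcp1b by -0.11, -0.12 and -0.13 with DEX, shRNA1 and shRNA2. The enhancers Edc3 and Edc4 took opposite signs with shRNA1, -0.43 (SE 0.44) and 0.41 (SE 0.37), each in the same direction on both slides.

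The mean differences of the 2 exonucleases that work from the 5' end had opposite signs in the DEX, shRNA1 and shRNA2 comparisons. Those of Xrn1, 0.27 with shRNA1 and 0.36 with shRNA2, each came from opposite signs on the 2 slides. Xrn1, the cytoplasmic enzyme, measured -2.22 and -1.77 without DEX, -2.81 and -2.27 with DEX, -2.22 and -2.31 with shRNA1 and -1.79 and -2.58 with shRNA2. It was lower with DEX on both slides, -0.55 (SE 0.40; -0.59 and -0.51; adjusted p 1.00 in limma, with the block 0.833), and its shRNA2 values took opposite signs on the slides, 1.02 and -0.31. Xrn2, the nuclear enzyme, measured 2.02 and 2.42 without DEX, 2.21 and 2.68 with DEX, 1.33 and 2.34 with shRNA1 and 1.62 and 2.53 with shRNA2. It differed by 0.23 with DEX, -0.61 with shRNA1 (SE 0.50; -0.89 and -0.34 on the slides; adjusted p 0.275 in limma with the block) and -0.37 with shRNA2 (SE 0.50). Leaving out single arrays gave -1.12 to -0.11 for shRNA1.

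The RNA exosome, a ring of EXOSC subunits that works with the nucleases DIS3 and EXOSC10, was spread widely between the slides. With DEX 4 of its 10 genes were higher and 6 lower, at -0.29 to 0.18. With shRNA1 2 were higher and 8 lower, at -0.89 to 0.63, and with shRNA2 3 and 7, at -0.53 to 0.38; none passed the test. The relative median with shRNA1 was -0.50, with -0.80 on slide 1 and -0.21 on slide 2, and with shRNA2 it was -0.25, from -0.63 and 0.11. On the first slide the median signal of the 10 genes was 2.98 without DEX, 2.79 with DEX, 2.36 with shRNA1 and 2.14 with shRNA2. On the second slide it was 3.49, 3.58, 3.46 and 3.59. The first slide's shRNA arrays are also those with the lowest signal, 476 and 522 at the 75th percentile, and the part of signal strength in this pattern was not tested.

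Most single subunits, but not all, followed this course. On the first slide 8 of the 10 genes were lower with shRNA1 and 9 with shRNA2, and on the second 6 and 2. Of all genes 38.8% and 47.1% were lower on the first slide, and 38.5% and 51.3% on the second. Exosc1, a cap subunit of the ring, measured -0.28 and 0.44 without DEX, -0.58 and 0.48 with DEX, -1.91 and 0.03 with shRNA1 and -1.34 and 0.58 with shRNA2, with -0.89 for shRNA1 (SE 0.90; -1.32 and -0.45 on the slides) and -0.33 for shRNA2 (-0.76 and 0.10); its second probe gave -0.68 and -0.41. Exosc3 differed by -0.73 and -0.46, Exosc8 by -0.66 and -0.53, and Exosc7 by -0.51 and -0.48. Dis3, the main nuclease of the complex, measured 2.44 and 2.90 without DEX, 2.30 and 3.00 with DEX, 1.72 and 2.93 with shRNA1 and 1.38 and 3.04 with shRNA2, and differed by -0.32 with shRNA1 (SE 0.68; -0.59 and -0.06 on the slides) and -0.44 with shRNA2 (-0.92 and 0.05). Exosc4, Exosc5 and Exosc9 differed by -0.02, -0.02 and -0.33 with shRNA1 and by 0.16, -0.0036 and -0.14 with shRNA2. Exosc10, the nuclear catalytic subunit, was higher by 0.28 with shRNA1 (SE 0.34), but its second probe gave -0.07.

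Exosc2 ran opposite to most of the ring, and its probe holds a repeated sequence. It measured 8.84 and 7.89 without DEX, 9.07 and 8.02 with DEX, 9.98 and 8.37 with shRNA1 and 9.82 and 8.02 with shRNA2, higher on the first slide than on the second by 1.35 on average, where 9 of the 10 exosome genes were lower there. The probe shares a word of 20 bases with 94 of 32851 mouse promoter windows on either strand, a count that 0.0203% of all probes reach, and 30 windows hold the word shown in capitals. These bases belong to the B2 family of short interspersed repeats, by background knowledge. The single probe of another gene that shares such a word, Gm885, measured 8.37 and 7.29 without DEX, 8.30 and 7.33 with DEX, 9.21 and 7.76 with shRNA1 and 8.94 and 7.40 with shRNA2. It differed by -0.01 with DEX, 0.67 with shRNA1 and 0.35 with shRNA2, where Exosc2 differed by 0.18, 0.63 and 0.38. Whether the probe also detects other transcripts was not tested. Without Exosc2, 1 exosome gene was higher and 8 lower with shRNA1 (relative median -0.51), and 2 were higher and 7 lower with shRNA2 (-0.34). Of the 58 member probes, 55 shared no such word with a probe of another name; the other 2, besides that of Exosc2, were those of Exosc9 and Pabpc1, with 5 and 1 such probes.

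**Figure D4:**
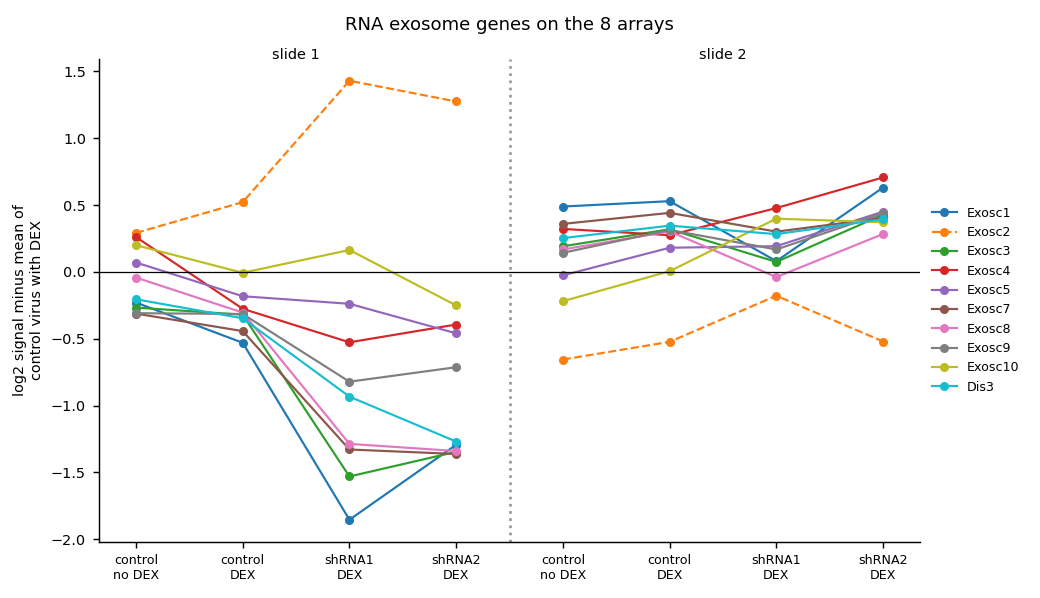
Log2 signal of the 10 exosome genes minus each gene's mean over the control virus arrays with DEX (vertical axis), on the 4 arrays of slide 1 (left) and of slide 2 (right); the dashed line is Exosc2, whose probe holds a repeated word. On slide 1 most genes lie lower on the shRNA arrays and Exosc2 higher; on slide 2 the lines run closer together, with group medians of 3.46 to 3.59 before centring.

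Upf1, the helicase that drives nonsense-mediated decay, measured 1.63 and 1.4 without DEX, 1.45 and 1.32 with DEX, 1.75 and 1.72 with shRNA1 and 1.09 and 1.61 with shRNA2. It differed by -0.12 with DEX, 0.34 with shRNA1 (SE 0.31; 0.29 and 0.40 on the slides) and -0.04 with shRNA2, and shRNA1 exceeded shRNA2 by 0.38 (SE 0.31, adjusted p 1.00 in limma).

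Slide differences varied between members. As a mean over the groups, Rc3h2, Tia1, Tial1 and Upf1 differed less between the slides (-0.20, -0.07, 0.09 and 0.03) than in their largest group difference above. Cnot7 differed more (0.83). Slide differences of opposite sign cancel in such a mean. Upf1 measured 1.09 and 1.61 with shRNA2 but 1.45 and 1.32 with DEX. Tia1 measured -2.65 and -2.47 without DEX but -2.17 and -2.52 with DEX. Small means thus do not show that these genes differed little between the slides within a group. Averaged over groups, the second slide minus the first ranged from -1.45 (Btg1) to 1.41 (Exosc1) over the members, with 9 of 43 at an absolute value of 1 or more (20.9%, against 25.1% of all genes). All 4 BTG and TOB genes were lower on the second slide, by a median of 1.12, and 8 of 9 CCR4-NOT genes were higher there, by a median of 0.29. Of all 19128 genes 8038 were higher there, with a median of -0.18, and of the members 30 of 43, with a median of 0.23.

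13 members had a second tested probe, which serves as a check within the same arrays. The probes of Cnot6l, Btg1, Khsrp, Exosc1, Cnot2 and Dcp1b kept their sign in the DEX, shRNA1 and shRNA2 comparisons where either differed by over 0.1, although those of Dcp1b overlap in position. Those of Tial1 disagreed in sign in all 3. With shRNA1 the brighter and the other probe also disagreed in sign for Rc3h1, Pum2, Exosc10 and Elavl1. With DEX those of Tia1 (0.22 against -0.15), Cnot4 (-0.08 against 0.17) and Elavl1 (-0.20 against 0.02) disagreed in sign, and with shRNA2 those of Pum2 (0.17 against -0.16) and Exosc10 (0.06 against -0.14). The fit uses the brighter probe of each gene.

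**Figure D5:**
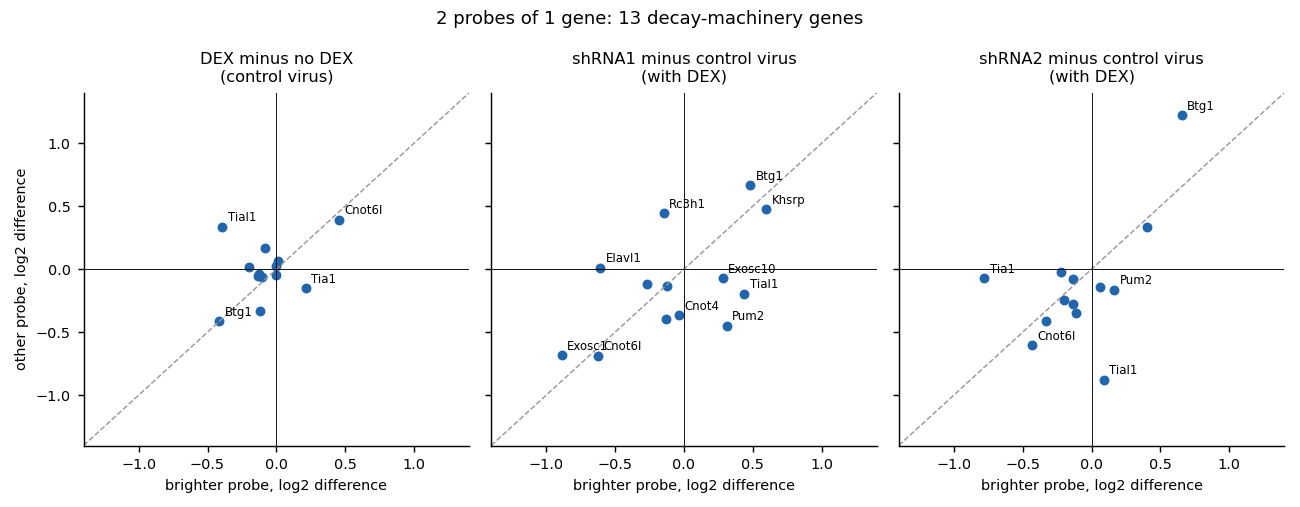
Log2 difference of the other probe (vertical axis) against that of the brighter probe (horizontal axis) for 13 genes with 2 tested probes, in 3 comparisons; the dashed line marks equal values. Cnot6l lies near the line in each panel (-0.63 against -0.69 for shRNA1), and Tial1 lies far from it (0.09 against -0.88 for shRNA2).

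The wider decay machinery, 107 further genes of which 99 were tested, gave no gene past the threshold in any comparison in limma, with or without the block. With DEX 44 were higher and 55 lower, with shRNA1 40 and 59, and with shRNA2 39 and 60, and the relative medians, 0.05, -0.25 and -0.11, were like those of the members. Among deadenylation genes, Pabpc4, a second cytoplasmic poly(A)-binding protein, differed by -0.56 with DEX (SE 0.32), 0.90 with shRNA1 (adjusted p 0.229 in limma with the block) and 0.45 with shRNA2. Noct, a clock-regulated CCR4-like protein, differed by -0.69 with DEX and 0.86 with shRNA1, and shRNA1 exceeded shRNA2 by 1.04 (SE 0.38, adjusted p 1.00 in limma). Pan2, the catalytic partner of PAN3, was higher with shRNA1 than with shRNA2 by 0.85 (SE 0.50), and Btg3 was higher with shRNA2 by 0.84 (SE 0.37).

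Among decapping genes, the helicase Ddx6 differed by -0.40 with DEX and 0.38 with shRNA1 (SE 0.28), Lsm14b by -0.37 with DEX and Eif4enif1 by 0.10 with shRNA1. Of the exosome cofactors, Hbs1l and Zcchc7 differed by 0.49 and 0.48 with shRNA1, Ttc37 by -0.46 with shRNA2 and 0.30 with DEX, and Pelo by -0.31 with DEX. In nonsense-mediated decay, Dhx34 and Eif4a3 differed by 0.70 and -0.61 with shRNA1, Upf3b and Upf2 by -0.54 and -0.18 with shRNA2, and Upf3a by -0.16 with DEX. Smg9 was higher with shRNA1 than with shRNA2 by 0.64 (SE 0.43).

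Zfp36l1 and Zfp36 are relatives of Zfp36l2 that bind the same kind of element. Zfp36l1 differed by -0.58 with DEX, 0.52 with shRNA1 (SE 0.30) and 0.13 with shRNA2, and Zfp36 was well above background on both arrays only without DEX. Other RNA binders had larger differences than any member. Celf2 differed by 1.27 with DEX (SE 0.83), made of 2.18 on slide 1 and 0.36 on slide 2. Mex3c differed by -1.09 with shRNA2 (SE 0.67, with -1.29 and -0.90 on the slides, adjusted p 0.78 in limma with the block).

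Promoter windows of 300 bases from RefSeq (build GRCm38.p6, from 250 bases before a start to 50 after) matched 37 members by symbol, with 47 windows. The glucocorticoid receptor's palindromic site, searched on both strands, was in 0 of the 47 windows and in 0.00913% of all 32851. TGTTCT, one arm of that site and so also within it, was likewise searched on both strands and was in 2 of them (4.26%), those of Exosc10 and Hnrnpd, and in 19% of all windows. Member windows had a median GC content of 64.7%, against 52.7% for all. These letters describe the windows and say nothing of binding.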

How the data were processed

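Total RNA of 8 samples was measured on Agilent 1-colour arrays. Per the file headers, the authors extracted spot intensities with Agilent Feature Extraction 10.1.1.1, with background subtracted and spatial and multiplicative detrending applied; probe positions in the files are on mm9. A deposited table of the authors' log2 values, whose array medians are 6.65 to 6.66 and whose ranks match the median signals of the same arrays (Spearman 1), served as an alternative. The submitters' processing notes name limma, without a version.

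Here the processed intensity was put on the log2 scale, and each array's 75th percentile was subtracted. Outlier-flagged spots were left out and spots of a probe averaged. Probes had to be well above background on both replicates in 1 or more groups, and the probe with the highest mean stood for its gene. One limma 3.58.1 model (R 4.3.3) was fitted over 19128 genes and all 8 arrays with no block. P-values were adjusted by Benjamini-Hochberg over all genes, with a threshold of 0.05. A relative median is a list's median difference minus that of all genes. Figures were drawn with matplotlib 3.10.9. The fit was checked on simulated data with added differences larger than any seen for a member. That check does not show the power for differences of the size reported here.

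Replicate numbers come from the labels, and each number is 1 slide in the files. Same-numbered arrays deviated together in all 6 pairs of groups (correlations 0.43 to 0.86), so values with the replicate block are given beside results. Pairing by slide and pairing by culture cannot be told apart, because each number is 1 slide. With 2 arrays a group, the number of arrays limits the precision.

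The members and the gene lists were chosen with earlier results of these data known. Values on every array are given for members past the threshold, for the 4 members with the largest difference per comparison whose arrays did not overlap, and for 20 catalytic subunits, adaptors and binders listed by name. From each wider list the 2 genes with the largest difference without overlap are named. Some results under these rules are not reported here. Other members, and the second probes, were named after their values were seen.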

Additional observations from a re-analysis of the deposited data

How the results depend on the processing

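The count of members past the threshold was 0 in all 4 comparisons under each alternative run: the array median or quantile scaling, normexp, the authors' deposited log2 values, the mean of a gene's probes, no filter on dim probes, each array left out, and the replicate block alone or joined with each of these. The joined settings were chosen after seeing the data. The count over all genes was 0 in every setting without the block. With the replicate block it was 44 for DEX, 0 for shRNA1, 1 for shRNA2 and 0 between the shRNAs. Joined with the block, the DEX count was 16 with quantile scaling, 112 with median scaling, 145 with normexp, 72 with the deposited values, 49 with the mean of probes and 0 with no filter; it was 130 without either shRNA2 array, 2 without the first array without DEX, and 0 without any other single array. The shRNA2 count was 9 without the second shRNA2 array and 1 with the mean of probes, and the count between the shRNAs was 1 with normexp.

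The relative median of the members with DEX was 0.019 with no filter on dim probes; the cause was not tested. Leaving out each array in turn gave relative medians of -0.092 to 0.162 for DEX, -0.473 to 0.0066 for shRNA1, -0.403 to 0.211 for shRNA2 and -0.422 to 0.291 between the shRNAs. Among the single genes named, the shRNA1 difference of Tob1 ranged from -0.19, without the first shRNA1 array, to 1.31, without the second. The other 359 values kept their direction, and no named gene passed without the block in any setting. Of 24 named differences, 14 moved by over 1.5 times when an array was left out, among them Btg2 with DEX (-1.5 to -0.43) and with shRNA1 (0.34 to 1.51), Xrn1 with DEX (-0.81 to -0.28), Dcp2 between the shRNAs (0.23 to 0.87) and Upf1 between the shRNAs (0.12 to 0.64). Without the block most members' 95% intervals reach a 2-fold difference. With it 35, 23, 29 and 31 of 43 lie within 2-fold in the 4 comparisons, against 57.0%, 41.9%, 55.4% and 51.6% of all genes. Dim genes such as Zc3h12a have no measured level.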
